A study of Mus musculus with 50 samples.

Results

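A set of 7 genes tied to interleukin 17-producing gamma delta T cells was followed across 5 lymph nodes and 2 diets in mice. The set holds the paired scavenger receptor genes Scart1 and Scart2, the transcription factor Sox13, the delta chain constant region Trdc, the interleukin 23 receptor Il23r, the cytokine Il17a and the kinase Blk, which are 7 of 56600 gene entries in the table. The genes were picked by name, with earlier results of these same libraries known, so their own fold changes and their side of the threshold are given as a description and without p-values. The deficient group comprised 25 libraries from C57B6 mice at postnatal day 56, all of them female, born to dams kept on a vitamin A deficient diet from 3 weeks before mating. The sufficient group comprised 25 libraries from mice of the same strain and age, born to dams on the matched diet with vitamin A at 20 IU/g, and 10 of these libraries came from females and 15 from males. Poly(A) RNA of whole nodes draining the duodenum, jejunum, ileum or colon, and of the inguinal node, which drains skin, was sequenced with 5 libraries for each diet and node. The diets were given to the dams, so dam cannot be told apart from diet. The labels state later litters for all mice, the second and the third, but in the table the names of the deficient columns alone carry the mark 3rd. What it marks is not explained, and if it is the litter, litter and diet cannot be told apart either. The labels do not tie nodes to single mice, so every test measures the spread between libraries.

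Gamma delta T cells carry a receptor made of a gamma and a delta chain. One lineage of them leaves the thymus already set to make interleukin 17, depends in mice on Sox13, and responds to interleukin 23 and interleukin 1 without a classical antigen. These cells settle in skin, gut and other barriers and travel to the draining nodes, where they are a small share of all lymphocytes. In mice Scart1 and Scart2 encode surface receptors with scavenger receptor cysteine-rich domains that are used as markers of this lineage. Vitamin A is the source of retinoic acid, which acts through nuclear receptors.

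Scart1 and Scart2 are neighbours on chromosome 7 (GRCm38, GENCODE M21, where they are named Cd163l1 and 5830411N06Rik). Scart1 lies at chr7:140218267-140231145 and Scart2 at chr7:140247284-140300736, both on the plus strand and 16138 bases apart. They are paralogs, and their annotated transcripts shared 0 stretches of 31 bases, out of 3985 distinct ones in Scart1 and 5712 in Scart2, so that no read stretch of that length fits both. Their promoters are shown because these were the members that differed most between the diets and did so together. Each stretch runs from 250 bases before to 50 bases after the RefSeq start on GRCm38.p6, at chr7:140218017-140218316 for Scart1 and at chr7:140247051-140247350 for the first of 3 RefSeq entries of Scart2. Capitals mark the letters TGACCT, the reverse complement of AGGTCA, the hexamer to which retinoic acid receptors and related nuclear receptors bind.
Scart1: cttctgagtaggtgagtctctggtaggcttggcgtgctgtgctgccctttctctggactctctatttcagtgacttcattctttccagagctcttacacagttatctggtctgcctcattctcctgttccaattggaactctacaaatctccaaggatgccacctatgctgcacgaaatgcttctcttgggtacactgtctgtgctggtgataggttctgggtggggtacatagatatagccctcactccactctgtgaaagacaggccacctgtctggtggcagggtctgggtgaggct
Scart2: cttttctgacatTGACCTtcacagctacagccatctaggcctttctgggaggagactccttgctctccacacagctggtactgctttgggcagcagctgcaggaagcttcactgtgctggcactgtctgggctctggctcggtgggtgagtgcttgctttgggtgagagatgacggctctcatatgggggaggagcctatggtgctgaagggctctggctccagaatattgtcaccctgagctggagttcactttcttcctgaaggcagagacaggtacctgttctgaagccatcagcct
AGGTCA was searched on both strands, where it does not overlap its own reverse complement. It was absent from the Scart1 window and present 1 time in the Scart2 window, on the minus strand with its first base at position -238 from the start. Of 32544 RefSeq mouse promoters of the same length, 5288 (16.2%) held it, so a match in 1 of the pair is a description and not a site. The other 2 entries of Scart2, with other starts, also held 1 match each, at positions 43 and 40 after their starts. These are the same bases of the chromosome, seen in both windows. Il23r held 2 matches and Il17a 1. The Sox core AACAAT, searched in the same way and held by 10.6% of promoters, was found in no member's window. The table held promoters for 5 of the 7 members.

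The libraries held 5335369 to 8904722 estimated counts, with a median of 7640371. A floor of 3 counts corresponds to 0.319 to 0.674 CPM, and levels below are TMM-normalised CPM, the counts scaled to a common library size. Genes listed for alpha beta T cells summed to 1546 to 2816 CPM and genes of B cells to 2469 to 4984 CPM. Both cell types are what whole lymph nodes hold. In 10 deficient libraries the processed pseudogene Gm19220 took 1.03% to 1.70% of counts, against 5.37% to 9.83% in the other 40. They are inguinal and colonic libraries 2, 3 and 5, ileal libraries 2 and 3, and jejunal and duodenal library 3. Pancreatic genes took 22.6% to 24.6% of counts in deficient duodenal library 4 and sufficient duodenal library 5, and at most 3.71% in the others. Results of members that move without these libraries are given with and without them. For genes that are not members, only the number of calls over all genes was taken without these libraries. Whether single list genes named below hold without them was not tested.

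Scart1 and Scart2 were several-fold higher on the deficient diet in every node. Scart1, a scavenger receptor on gamma delta T cells, read 21.0, 13.4, 19.0, 20.5 and 16.6 CPM in deficient duodenal nodes, against 3.72, 3.57, 2.50, 2.63 and 4.27 CPM in sufficient duodenal nodes. In jejunal nodes Scart1 read 16.3, 13.9, 16.4, 15.9 and 15.6 CPM on the deficient diet and 3.74, 2.83, 2.26, 3.41 and 5.04 CPM on the sufficient diet. The deficient libraries of these 2 nodes all lay above all sufficient ones, with wide gaps. Here and below, the share of all genes without overlap between diets was not counted, so lack of overlap is a description. Ileal Scart1 read 18.7, 13.1, 23.8, 21.2 and 22.6 CPM on the deficient diet and 2.47, 3.09, 4.44, 1.90 and 2.44 CPM on the sufficient diet. In colonic nodes the deficient libraries gave 18.7, 19.5, 25.1, 16.1 and 13.5 CPM of Scart1, against 4.34, 3.50, 3.96, 5.58 and 4.18 CPM in the sufficient libraries. Again the groups did not overlap in either node. Inguinal Scart1 was highest of all, with 49.6, 27.4, 56.6, 37.1 and 26.3 CPM on the deficient diet, against 9.14, 9.66, 11.4, 17.2 and 15.0 CPM on the sufficient diet, and the groups were again apart.

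Scart2 followed the same course at other values. Its levels were 35.2, 25.4, 32.8, 29.7 and 28.2 CPM in deficient duodenal nodes, against 4.69, 2.95, 5.47, 2.90 and 5.62 CPM in sufficient duodenal nodes. Jejunal Scart2 read 33.8, 25.9, 30.4, 27.9 and 32.7 CPM on the deficient diet and 3.25, 4.25, 4.53, 5.63 and 6.04 CPM on the sufficient diet. The lowest deficient library stood far above the highest sufficient one in both nodes. In ileal nodes Scart2 read 33.0, 28.1, 37.9, 27.5 and 35.6 CPM on the deficient diet and 2.60, 6.19, 8.06, 2.78 and 3.02 CPM on the sufficient diet. Colonic Scart2 read 31.9, 27.5, 40.2, 29.3 and 28.4 CPM on the deficient diet and 5.70, 7.83, 6.15, 3.45 and 8.67 CPM on the sufficient diet. Inguinal Scart2 read 80.4, 54.3, 64.1, 60.7 and 49.9 CPM on the deficient diet and 18.4, 21.9, 27.3, 19.5 and 33.2 CPM on the sufficient diet. None of these 3 nodes showed any overlap between the diets.

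**Figure D1:**
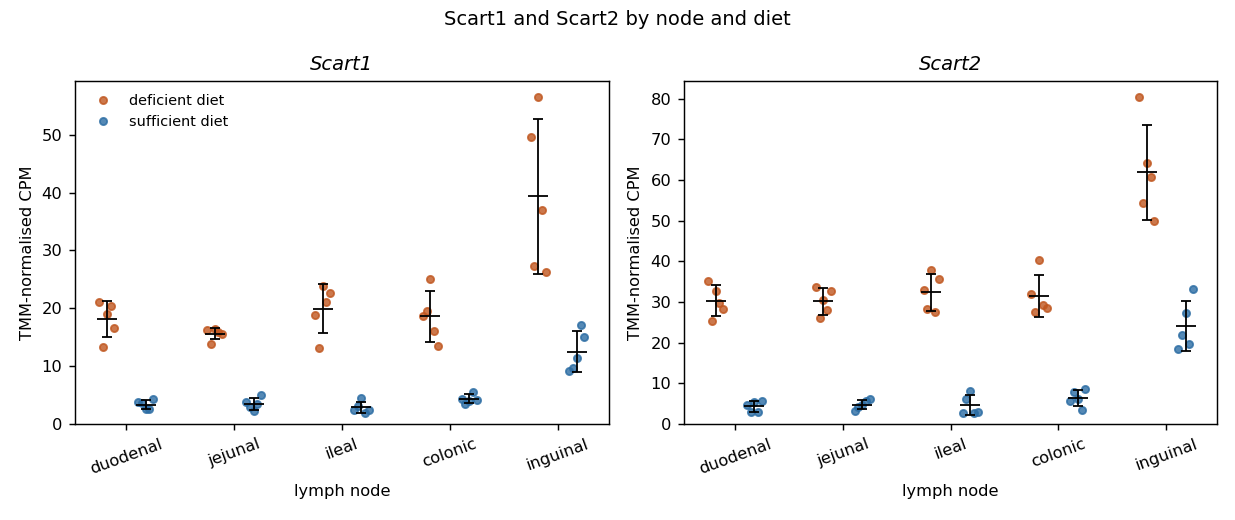
Levels of Scart1 and Scart2 in TMM-normalised CPM (y axis) by lymph node (x axis), with the deficient diet left of the sufficient diet. Each point is a library and bars give the mean ± SD of 5 libraries. In each node the deficient points lie above the sufficient ones, and inguinal nodes are highest within each diet.

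The fitted log2 fold change of Scart1, deficient over sufficient diet, was 2.56 ± 0.25 in duodenal, 2.28 ± 0.25 in jejunal, 2.92 ± 0.25 in ileal, 2.22 ± 0.24 in colonic and 1.78 ± 0.23 in inguinal nodes (± SE), or 3.44-fold to 7.57-fold. For Scart2 it was 2.96 ± 0.25 in duodenal, 2.81 ± 0.25 in jejunal, 3.00 ± 0.25 in ileal, 2.46 ± 0.24 in colonic and 1.51 ± 0.22 in inguinal nodes, or 2.84-fold to 8.00-fold. All 10 values lay past the threshold of edgeR's quasi-likelihood test, an adjusted p of 0.05 over 18387 genes. In this count of calls, 2 of the 6 tested members passed in duodenal, jejunal, colonic and inguinal nodes and 4 in ileal nodes. Over all genes 10.1% passed in duodenal, 4.55% in jejunal, 5.7% in ileal, 2.22% in colonic and 0.838% in inguinal nodes, and nothing is read from the members' share because the diet helped to choose them. Genes that passed as higher in all 5 nodes numbered 32 over the whole table, and Scart1 and Scart2 were among them. In females alone, which leaves 2 sufficient libraries a node, the 10 values for both genes lay between 1.61 and 3.01. In whole-node RNA, more cells of a type and more RNA per cell cannot be told apart.

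The order of the levels was alike for both genes. Deficient inguinal nodes came first with 39.4 ± 13.4 CPM of Scart1 and 61.9 ± 11.7 CPM of Scart2 (SD, n = 5). The deficient ileal, colonic, duodenal and jejunal nodes followed at 15.6 to 19.9 CPM of Scart1 and 30.2 to 32.4 CPM of Scart2, and neighbours in that order overlapped. Sufficient inguinal nodes averaged 12.5 ± 3.49 CPM of Scart1 and 24.1 ± 6.15 CPM of Scart2, with ranges that overlapped those of deficient jejunal nodes. The sufficient gut-draining nodes formed the bottom, with means of 2.87 to 4.31 CPM of Scart1 and 4.32 to 6.36 CPM of Scart2, which overlapped among themselves. Gaps without overlap lay only below deficient inguinal and below sufficient inguinal nodes.

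Within each diet, both Scart genes were lower in gut nodes than in the inguinal node. On the deficient diet the log2 fold change, gut-draining over inguinal, was -1.13 ± 0.14 for Scart1 and -0.99 ± 0.14 for Scart2. On the sufficient diet it was -1.84 ± 0.16 for Scart1 and -2.30 ± 0.15 for Scart2. In both diets 3 of 6 tested members passed as lower, Blk being the third, where 5.71% of all genes passed on the deficient diet and 16.9% on the sufficient diet. Genes that passed as lower made up 2% of all tested genes on the deficient and 7.22% on the sufficient diet. The difference between these contrasts was itself fitted as an interaction. It came to 1.30 ± 0.22 for Scart2, which passed, and to 0.71 ± 0.23 for Scart1, which did not, in a test where 0.919% of genes passed. Without the 10 libraries of low Gm19220, which leaves 2 deficient inguinal libraries, the interaction of Scart2 was 1.09 and did not pass. Among gut-draining nodes neither Scart gene passed in small intestinal against colonic nodes or in duodenal against ileal nodes on either diet, with log2 fold changes from -0.49 to 0.22.

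**Figure D2:**
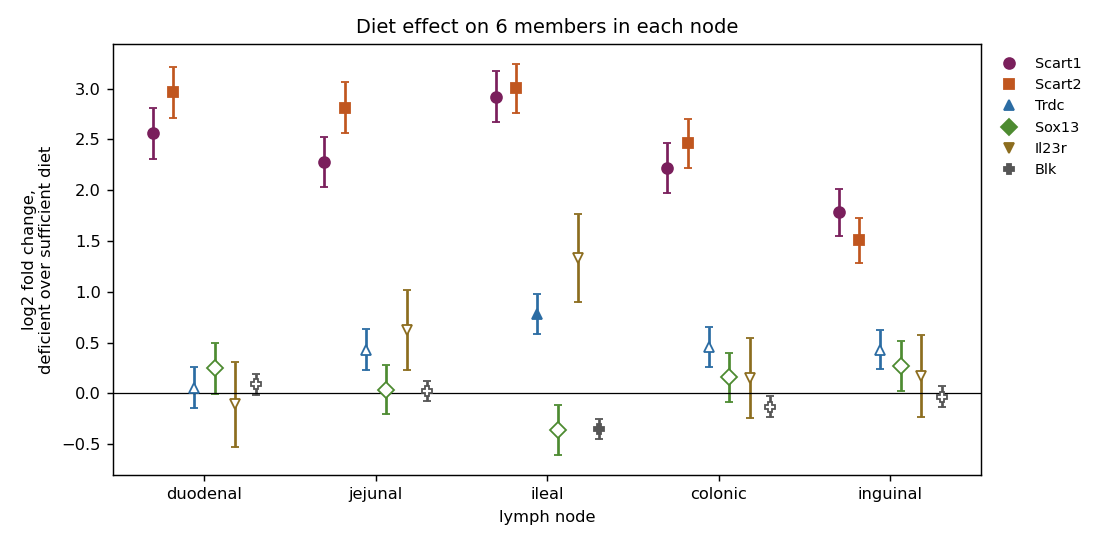
Log2 fold change, deficient over sufficient diet, of the 6 tested members (y axis) by node (x axis), with bars of ± 1 SE. Filled symbols passed the adjusted threshold over 18387 genes and open symbols did not. Scart1 and Scart2 stand between 1.51 and 3.00 in every node, and of the others only ileal Trdc, at 0.78, and ileal Blk, at -0.35, are filled.

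Sex was tested within the sufficient diet, which holds both sexes. The log2 fold change, male over female, was 0.20 ± 0.16 for Scart1 and 0.23 ± 0.16 for Scart2, and none of the 6 tested members passed. In each sufficient node libraries 1 and 2 were female and libraries 3 to 5 male. If the numbers mark mice, few mice of each sex were compared, and the SE between libraries may be too small. In inguinal nodes Scart1 lay at 11.4 to 17.2 CPM in 3 male libraries and 9.14 to 9.66 CPM in 2 female libraries. Inguinal Scart2 lay at 19.5 to 33.2 CPM in male libraries and at 18.4 to 21.9 CPM in female libraries, and these overlapped. Both sexes of the sufficient diet therefore stayed under the lowest deficient inguinal values of 26.3 CPM of Scart1 and 49.9 CPM of Scart2.

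Trdc, the constant region of the delta chain, changed far less. In ileal nodes Trdc read 20.3, 19.0, 26.6, 26.0 and 22.9 CPM on the deficient diet, against 17.1, 10.3, 12.2, 8.18 and 15.5 CPM on the sufficient diet. The ileal groups did not overlap, and the log2 fold change of 0.78 ± 0.20 lay past the threshold. In the other nodes the groups overlapped and none passed. Their Trdc means were 17.6 ± 3.88 CPM on the deficient and 16.2 ± 2.38 CPM on the sufficient diet in duodenal nodes, and 19.9 ± 3.62 CPM on the deficient and 14.0 ± 3.04 CPM on the sufficient diet in jejunal nodes. Colonic nodes averaged 21.3 ± 5.05 CPM on the deficient and 14.8 ± 3.05 CPM on the sufficient diet, and inguinal nodes 22.3 ± 4.00 CPM on the deficient and 15.8 ± 2.73 CPM on the sufficient diet. The log2 fold changes there were 0.06 ± 0.20, 0.43 ± 0.20, 0.46 ± 0.20 and 0.43 ± 0.19 from the duodenal to the inguinal node. The ileal value was 0.75 in females alone and 0.78 without the low Gm19220 libraries, and it did not pass in either. It was also lost without library number 2 of the sufficient diet, at 0.66. In both diets Trdc did not pass between gut-draining and inguinal nodes, with log2 fold changes of -0.13 ± 0.14 on the deficient and -0.14 ± 0.15 on the sufficient diet.

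Trdc counts carry a limit of annotation. The gene (chr14:54142851-54148868, plus strand) shares 207 exonic bases, 5.36% of its own, with Trdv5 on the opposite strand and 96 bases, 2.48%, with the antisense gene Gm43434. Of its 31-base stretches, 6.51% also occur in other genes, 177 of them in Trdv5. The sources used here do not say whether counting used strand, so Trdc and these partners may have exchanged reads. In all other members at most 0.165% of such stretches occur elsewhere.

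The number of Scart counts for each Trdc count sets the pair against the delta chain constant gene in the same library. Which cells of the node the Trdc counts came from was not tested. Scart1 had 1.05 ± 0.195, 0.804 ± 0.130, 0.861 ± 0.114, 0.925 ± 0.340 and 1.77 ± 0.509 counts per Trdc count in deficient duodenal, jejunal, ileal, colonic and inguinal nodes (SD, n = 5). In the sufficient nodes, in the same order, Scart1 had 0.205 ± 0.0249, 0.246 ± 0.0351, 0.238 ± 0.0933, 0.301 ± 0.0610 and 0.835 ± 0.359 counts per Trdc count. The ranges of Scart1 per Trdc did not overlap between diets in the gut-draining nodes and overlapped in inguinal nodes, at 1.01 to 2.40 on the deficient and 0.500 to 1.39 on the sufficient diet. Scart2 had 1.77 ± 0.338, 1.56 ± 0.336, 1.43 ± 0.221, 1.56 ± 0.506 and 2.83 ± 0.583 counts per Trdc count in the deficient nodes in that order. In the sufficient nodes Scart2 had 0.268 ± 0.0867, 0.344 ± 0.0763, 0.390 ± 0.235, 0.460 ± 0.207 and 1.57 ± 0.457 counts per Trdc count. For Scart2 too the diets overlapped in inguinal nodes alone, at 1.92 to 3.41 on the deficient and 1.01 to 2.04 on the sufficient diet. These ratios are of counts and not per length, so they compare groups and not genes.

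**Figure D3:**
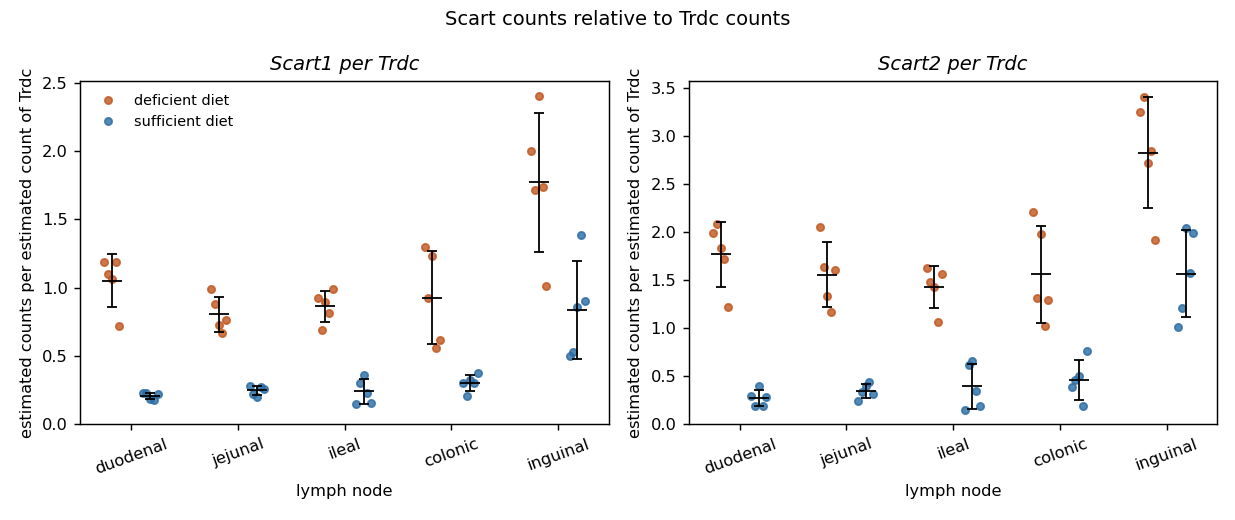
Estimated counts of Scart1 and Scart2 for each estimated count of Trdc in the same library (y axis) by node (x axis), with the deficient diet left of the sufficient diet and bars of mean ± SD over 5 libraries. The deficient gut-draining nodes lie above the sufficient ones without overlap, and the ratio is highest in inguinal nodes.

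The ratio of Scart1 to Scart2 counts overlapped between the diets in every node. In gut-draining nodes its means were 0.522 to 0.614 on the deficient and 0.699 to 0.831 on the sufficient diet, and in inguinal nodes 0.628 ± 0.151 on the deficient and 0.537 ± 0.193 on the sufficient diet. Single libraries ran from 0.466 to 0.882 on the deficient and from 0.421 to 1.57 on the sufficient diet, where counts were lower. Across 50 libraries, after the mean of each diet and node was taken off, their log2 levels had a Pearson r of 0.43, with 0.75 among deficient and 0.34 among sufficient libraries. The other 14 pairs of tested members had r between -0.32 and 0.27 on the same measure. Libraries share depth and origin, so these are descriptions.

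Sox13, a transcription factor needed for this lineage in mice, did not pass in any comparison. Its means lay between 6.37 and 8.86 CPM in deficient groups and between 5.92 and 7.74 CPM in sufficient groups, and each overlapped its neighbour in the order of levels. The log2 fold change for diet ran from -0.36 ± 0.25 in ileal to 0.27 ± 0.25 in inguinal nodes. Sox13 lies at chr1:133382303-133424377 on the minus strand. Of 10 genes of endothelium and stroma, cells that may also express Sox13, 1 was higher and 3 lower in duodenal nodes, 1 and 2 in jejunal and in ileal nodes, 0 and 0 in colonic, and 1 and 0 in inguinal nodes. They summed to 781 to 1362 CPM in deficient and 797 to 1410 CPM in sufficient libraries, and the part of these cells in the level of Sox13 was not tested.

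Il23r, the receptor through which interleukin 23 drives interleukin 17, was low in every group, with means of 0.568 to 1.82 CPM that overlapped their neighbours in order. Ileal Il23r read 1.83, 2.16, 0.719, 0.962 and 1.20 CPM on the deficient diet, against 0.390, 0.703, 0.494, 1.02 and 0.232 CPM on the sufficient diet. These groups overlapped, and the log2 fold change of 1.33 ± 0.43 did not pass. On the sufficient diet the duodenal nodes read 0.827, 0.931, 1.09, 2.90 and 1.12 CPM of Il23r, and their log2 fold change over ileal nodes was 1.29 ± 0.41, which passed beside 8.07% of all genes. The call was lost without library number 1, 3, 4 or 5 of the sufficient diet or number 2 or 5 of the deficient diet, with log2 fold changes of 1.11 to 1.32, and in females alone the value was 0.67. On the deficient diet the same contrast was -0.16 ± 0.37 and did not pass, beside 5.6% of all genes. Il23r lies at chr6:67422932-67491855 on the minus strand.

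Il17a, the cytokine that names the lineage, was all but undetected. A count above 0 was found in 5 of 50 libraries, with 1 count in each and 5 in all, so it was not tested. The libraries were sufficient duodenal 3 and 5, sufficient jejunal 1, sufficient ileal 2 and deficient inguinal 3, all under the floor of 3 counts. Il17a (chr1:20730905-20734496, plus strand) could thus not be compared at this depth. Its relatives gave little more, since Il17f had 2 to 19 counts a group and Il22 0 to 4, and both fell under the filter on low counts.

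**Figure D4:**
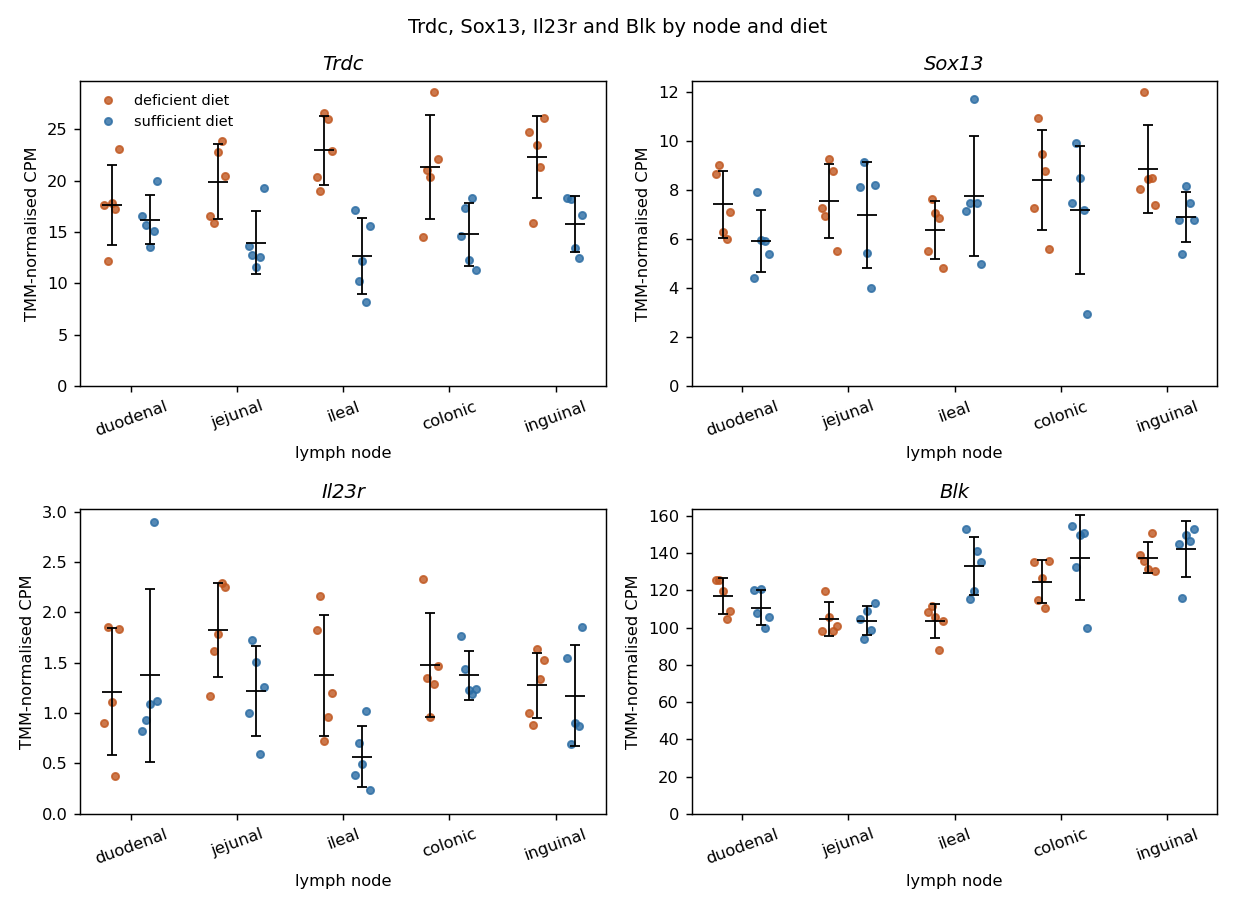
Levels of Trdc, Sox13, Il23r and Blk in TMM-normalised CPM (y axis) by lymph node (x axis), with the deficient diet left of the sufficient diet. Each point is a library and bars give the mean ± SD of 5 libraries. Only ileal Trdc and ileal Blk show diets that do not overlap.

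Blk, a Src family kinase that mouse interleukin 17-type gamma delta T cells need and that B cells express in abundance, moved against the Scart genes in ileal nodes. Ileal Blk read 108, 111, 106, 88.1 and 104 CPM on the deficient diet, against 153, 116, 120, 141 and 135 CPM on the sufficient diet. The groups did not overlap, and the log2 fold change of -0.35 ± 0.10 passed. In the other nodes the diets overlapped, with log2 fold changes of -0.13 to 0.09. Gut-draining nodes held less Blk than inguinal nodes, by a log2 fold change of -0.30 ± 0.07 on the deficient and -0.24 ± 0.07 on the sufficient diet. Small intestinal nodes held less than colonic nodes on the sufficient diet, at -0.26 ± 0.08, where 3.83% of genes passed, and at -0.20 ± 0.08 on the deficient diet, where Blk did not pass and 1.77% of genes did. Ileal Blk was -0.37 in females alone and -0.40 without the low Gm19220 libraries, and passed in neither. Its call was also lost without library number 3, 4 or 5 of the deficient diet or number 1 or 4 of the sufficient diet, at -0.36 to -0.19. The lower Blk of gut-draining nodes did not pass without number 4 of the deficient diet (-0.22) or without number 4 (-0.23) or 5 (-0.19) of the sufficient diet. The call between small intestinal and colonic nodes held without number 4 of the deficient or number 5 of the sufficient diet and was lost without any other number, at -0.26 to -0.21. Blk lies at chr14:63372836-63417037 on the minus strand.

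B cell genes moved with Blk between nodes. Of 12 listed B cell genes, 0 were higher and 9 lower in gut-draining against inguinal nodes on the deficient diet, with a median log2 fold change of -0.35 against -0.01 over all genes. On the sufficient diet 0 were higher and 11 lower, with a median of -0.34 against -0.01 over all genes. With diet they did not move as Blk did. In ileal nodes, where Blk was lower on the deficient diet, 0 of the 12 were higher and 1 lower, the complement receptor Cr2 (log2 fold change -0.47 ± 0.15, adjusted p = 0.0468), while 8 had a positive sign and the median was 0.06. In duodenal nodes 6 were higher and 0 lower with a median of 0.34, and in jejunal nodes 3 and 0 with a median of 0.20, where Blk did not pass. In colonic and inguinal nodes 0 passed by edgeR, and 3 colonic and 6 inguinal genes had an unadjusted p under 0.05. The summed level of B cell genes lay at 3068 to 3749 CPM in deficient and 2985 to 3778 CPM in sufficient ileal libraries. The gene most like Blk across 50 libraries was Fcer2a, the low-affinity IgE receptor of B cells, with a Pearson r of 0.85 among 16647 candidates. The part of B cells in the Blk values was not tested.

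Apart from Trdc, gamma and delta chain genes were taken from a list of 11. Variable genes were sparse, and Trdv4, Trdv1, Trdv2-2, Trgv5 and Trgv6 fell under the filter, which left 6 tested genes. By edgeR 0 of the 6 passed for diet in any node, while at an unadjusted p under 0.05 there were 1, 0, 1, 3 and 3 from the duodenal to the inguinal node. Their median log2 fold change ran from -0.18 in jejunal to 0.48 in colonic nodes. Trgv6, the variable gene of one skin-tropic interleukin 17 lineage in mice, had 16 counts in deficient and 4 in sufficient inguinal nodes over 5 libraries each, too few for a comparison. Trdv4, which pairs with it, had 18 counts in deficient and 19 in sufficient inguinal nodes. The gamma constant gene Trgc1 averaged 7.50 ± 1.96 CPM in deficient inguinal nodes and 3.99 to 4.62 CPM in deficient gut-draining nodes, and it fell there relative to the inguinal node, with a log2 fold change of -0.79 ± 0.15 and an adjusted p of 0.000464. On the sufficient diet the same contrast was -0.24 ± 0.16 for Trgc1 (adjusted p = 0.354), and by edgeR 0 of the 6 chain genes passed, with 2 at an unadjusted p under 0.05. On the sufficient diet Trgc1 was higher in small intestinal than in colonic nodes, by a log2 fold change of 0.77 ± 0.18 with an adjusted p of 0.00738. On the deficient diet that contrast was -0.11 ± 0.17 (adjusted p = 0.922), and 0 of the 6 chain genes passed by edgeR or had an unadjusted p under 0.05. The diets' difference in the first contrast of Trgc1 was tested as an interaction of -0.55 ± 0.23, which did not pass (adjusted p = 0.326), and that in the second was not tested. The summed level of the 11 genes averaged 18.8 CPM in deficient and 21.9 CPM in sufficient duodenal nodes, and 20.2 CPM in deficient and 21.1 CPM in sufficient jejunal nodes. It averaged 21.2 CPM in deficient and 17.3 CPM in sufficient ileal nodes, 21.2 CPM in deficient and 15.1 CPM in sufficient colonic nodes, and 26.5 CPM in deficient and 19.4 CPM in sufficient inguinal nodes.

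Partner genes of the type 17 program were followed in a list of 24, of which 22 were tested. On the deficient diet 8 were higher and 1 lower in duodenal nodes, 7 and 0 in jejunal, 7 and 1 in ileal, 3 and 0 in colonic, and 2 and 0 in inguinal nodes. Their median log2 fold change was 0.25, 0.36, 0.22, 0.13 and 0.14 in that order, against -0.00354 to 0.0156 over all genes tested. Zbtb16, which encodes the innate T cell factor PLZF, rose in all 5 nodes, with 23.9 ± 8.57 CPM in deficient and 4.56 ± 0.975 CPM in sufficient inguinal nodes, a log2 fold change of 2.17 ± 0.32 with an adjusted p of 6.72e-05. In gut-draining nodes Zbtb16 rose by a log2 fold change of 1.28 ± 0.31 to 1.72 ± 0.32 (adjusted p between 0.000335 and 0.00808). S100a4, a calcium-binding protein of effector lymphocytes and myeloid cells, rose in all 5 nodes, from a log2 fold change of 2.30 ± 0.15 in duodenal (adjusted p = 2.62e-15) to 0.57 ± 0.14 in inguinal nodes (adjusted p = 0.0322). Il7r, the interleukin 7 receptor that sustains these and other T cells, rose in ileal nodes with 259 ± 51.9 CPM on the deficient and 114 ± 6.68 CPM on the sufficient diet (log2 fold change 1.14 ± 0.15, adjusted p = 6.19e-07). It also rose in the duodenal, jejunal and colonic nodes. These partners are expressed by other cells of a node too, and the list was chosen with earlier results known.

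Ccr6, a chemokine receptor of this lineage and of B cells, and Maf, a lineage factor, passed in no node for diet. Type 3 innate lymphoid cells share much of the type 17 program, and of 11 tested genes of those cells 2 were higher and 2 lower in duodenal nodes, 2 and 1 in jejunal, 1 and 1 in ileal, 0 and 1 in colonic, and 0 and 0 in inguinal nodes.

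**Figure D5:**
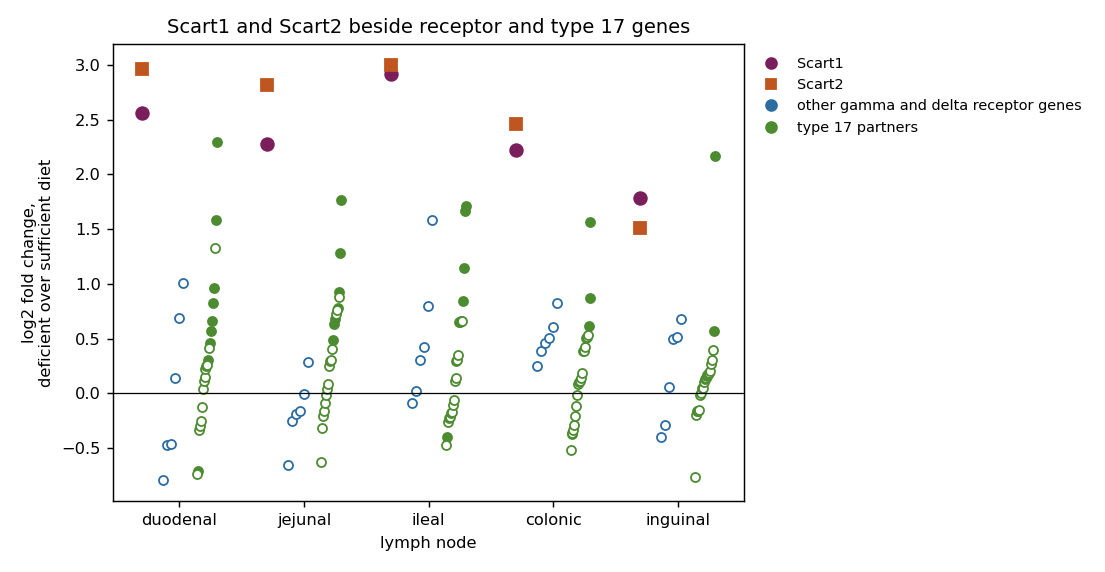
Log2 fold change, deficient over sufficient diet, of Scart1, Scart2, 6 gamma and delta chain genes other than Trdc and 22 type 17 partners (y axis) by node (x axis), each point a gene. Filled symbols passed the adjusted threshold over 18387 genes and open ones did not, which leaves all chain genes open, while Zbtb16 and S100a4 are filled in all 5 nodes.

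Cytokines that act upstream of these cells moved in both directions. Il12b, the subunit shared by interleukin 12 and interleukin 23, rose in jejunal nodes with 9.94 ± 2.78 CPM on the deficient and 3.22 ± 0.543 CPM on the sufficient diet (log2 fold change 1.60 ± 0.25, adjusted p = 2.55e-05) and in duodenal nodes (0.91 ± 0.25, adjusted p = 0.0136). Il23a, the subunit particular to interleukin 23, fell under the filter. Tgfb1 rose in duodenal nodes (log2 fold change 0.60 ± 0.11, adjusted p = 9.44e-05), jejunal nodes (0.40 ± 0.11, adjusted p = 0.0181) and colonic nodes (0.39 ± 0.10, adjusted p = 0.03). Il1b, which acts with interleukin 23 on these cells, fell in duodenal nodes to 1.51 ± 1.08 CPM on the deficient diet, against 5.29 ± 2.25 CPM on the sufficient diet (log2 fold change -1.92 ± 0.36, adjusted p = 0.000291), and in jejunal nodes (-1.48 ± 0.36, adjusted p = 0.00882). Il7, the ligand of Il7r, fell in ileal nodes (-0.99 ± 0.18, adjusted p = 0.000178), jejunal nodes (-0.81 ± 0.17, adjusted p = 0.00208) and duodenal nodes (-0.72 ± 0.17, adjusted p = 0.00399). In inguinal nodes, where both Scart genes passed, 0 of the 6 tested cytokines passed by edgeR and 1 had an unadjusted p under 0.05.

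Among markers of other cells, Cd207 moved along with the Scart genes. Cd207, which encodes langerin of Langerhans cells and some dermal dendritic cells that travel from skin, averaged 11.3 ± 2.96 CPM in deficient and 3.78 ± 0.840 CPM in sufficient inguinal nodes. In gut-draining nodes Cd207 averaged 3.41 to 5.25 CPM on the deficient and 0.590 to 0.966 CPM on the sufficient diet. Cd207 rose with the deficient diet in all 5 nodes, from 1.65 ± 0.33 on the log2 scale in inguinal nodes (adjusted p = 0.00547) to 3.02 ± 0.41 in colonic ones (adjusted p = 3.54e-06). Against the inguinal node it was lower in the nodes of the gut on the deficient diet (log2 fold change -1.36 ± 0.21, adjusted p = 6.99e-06) and on the sufficient diet (-2.20 ± 0.25, adjusted p = 5.25e-09), the same directions as Scart1 and Scart2. Of the 5 genes of skin and Langerhans cells, 3 were tested, and 1 or 2 were higher for diet in each node. Between gut-draining and inguinal nodes Cd207 was the only 1 of the 3 to pass, on either diet. The median log2 fold change of the 3 was 0.03 on the deficient diet, where 2 had a positive sign. On the sufficient diet it was -0.18, and 1 had a positive sign. The keratin Krt5 was at 0 in every gut-draining library, with 17 counts in deficient and 7 in sufficient inguinal nodes, and Krt14 had at most 14 counts a group. The summed level of the 5 genes was 8.20 to 26.5 CPM in deficient and 4.54 to 11.5 CPM in sufficient gut-draining libraries. In inguinal libraries it was 14.4 to 24.6 CPM on the deficient and 8.72 to 15.5 CPM on the sufficient diet. The part of these cells in the Scart values was not tested.

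Some markers of interferon gamma-type gamma delta, cytotoxic and natural killer cells were also higher in ileal nodes, where Trdc passed. Cd27 is a surface receptor of many lymphocytes that, among mouse gamma delta T cells, marks those that do not make interleukin 17. It was the gene most like Trdc over 50 libraries, with a Pearson r of 0.73. The pore-forming protein Prf1 (0.73) and Atp8b4 (0.70) followed. In ileal nodes Cd27 averaged 115 ± 10.9 CPM on the deficient and 70.0 ± 13.2 CPM on the sufficient diet (log2 fold change 0.69 ± 0.14, adjusted p = 0.000636). Eomes, a factor of cytotoxic lymphocytes, rose there as well (log2 fold change 1.28 ± 0.18, adjusted p = 2.63e-06). Of 12 tested genes in that list, 4 were higher and 0 lower in ileal nodes, where 7 of the 12 had a positive sign and the lowest value was -0.51. The list also had 2 higher and 0 lower in duodenal, 2 and 1 in jejunal, and 3 and 0 in colonic nodes, where Trdc did not pass, and in inguinal nodes 0 passed by edgeR and 2 had an unadjusted p under 0.05. The summed level was 383 to 482 CPM in deficient and 288 to 352 CPM in sufficient ileal libraries. Of 14 genes listed for alpha beta T cells, 6 were higher and 0 lower in ileal nodes on the deficient diet. Among them were Trac, the alpha chain constant region (log2 fold change 0.52 ± 0.11, adjusted p = 0.00118), and Cd3e (0.59 ± 0.12, adjusted p = 0.00118). Cd3e belongs to the CD3 complex, which gamma delta T cells carry too, so this list is not particular to alpha beta T cells. The summed level of the 14 was 2029 to 2363 CPM in deficient and 1546 to 2052 CPM in sufficient ileal libraries. Inguinal nodes had 0 of the 14 higher and 1 lower. The part of these cells in the Trdc value was not tested.

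The genes most like each member were named by Pearson r of log2 levels over the 50 libraries, which fall into clusters by diet and node, so the r is a measure of likeness and no test. For Scart1 they were Cd207 (0.89), Baiap3 (0.88) and Vim (0.87), and for Scart2 Vim (0.87), Cd207 (0.87) and Klra8 (0.87). Klra8 encodes a natural killer cell receptor and Vim the filament protein vimentin. After the mean of each diet and node was taken off, r fell to 0.10 for Scart1 with Cd207 and was 0.33 for Scart1 with Vim. For Scart2 it was -0.08 with Cd207 and 0.37 with Klra8. Vim averaged 1052 ± 74.6 CPM in deficient and 833 ± 122 CPM in sufficient inguinal nodes. Klra8 averaged 10.2 ± 3.32 CPM in deficient and 4.14 ± 0.829 CPM in sufficient inguinal nodes, and Baiap3 32.4 ± 5.25 CPM in deficient and 19.3 ± 3.16 CPM in sufficient inguinal nodes. For Sox13 the likeness was lower, with Slc35a4 (0.55) and Slc13a3 (0.52) among the closest, and for Il23r it was Cd226 (0.54), Pira1 (0.51) and Cast (0.49). After Fcer2a, the genes most like Blk were the B cell kinase Btk (0.78) and H2-Ob (0.77), both of B cells.

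A score over the 6 tested members, the mean of their standardised log2 levels, was most like Cbx7 (0.82), Rcsd1 (0.81), Tnfrsf13b (0.80), Sfxn3 (0.80), Fcgr2b (0.80), St6gal1 (0.80), Ffar1 (0.79), Sorl1 (0.79), Ace (0.79) and Btla (0.78). Several of these, such as the receptors Tnfrsf13b, Fcgr2b and Btla, are B cell genes. None was among the 3 genes listed for Scart1, Scart2 or Trdc. Since 10 genes were listed for the score and only 3 for each member, this does not show that they were unlike those members. Set against the shared label, the 7 genes gave several patterns in whole-node RNA. The Scart pair moved with diet and with node. Trdc and Blk passed for diet in ileal nodes alone, in opposite directions. Both of these calls were lost in females alone and without the low Gm19220 libraries. Trdc also had positive log2 fold changes for diet in the other nodes, and ileal diet effects were not tested against those of other nodes. Sox13 and Il23r did not pass for diet in the main fit, and Il17a was not measurable.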

How the data were processed

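Poly(A) RNA of 50 lymph nodes had been quantified by the authors as estimated counts per gene. The deposited table holds these estimated counts for 56600 entries, and 0.122% of values above 0 were whole within 1e-06, so they were rounded. Per the submitters' processing notes, the tools were edgeR, limma and kallisto, and both mm10 and GRCm39 are listed as builds, without roles. No source used here says whether counting used strand. Of the entries, 379 have no gene name.

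Counts were tested with edgeR 4.0.16 (R 4.3.3), a quasi-likelihood fit on all 50 libraries with 1 mean per group, a sex term, TMM scaling and filterByExpr, which kept 18387 genes. P-values were adjusted by Benjamini-Hochberg with a threshold of 0.05. Only sufficient libraries inform the sex term, since the deficient ones are all female. Simulated data with 200 changed genes served to test the fit. The members and all gene lists were chosen with earlier results of these data known. List genes named in the text are up to 4 per list and comparison by smallest adjusted p, and others named for their role were chosen after their values were seen. Likeness was taken over 16647 genes. Alternatives used limma 3.58.1 (voom) and DESeq2 1.42.0, and those on Gm19220 and on pancreatic genes were chosen after seeing the data. Some results are not reported here.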

Additional observations from a re-analysis of the deposited data

Results flagged for a closer look

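Among 64 groups of 5 libraries checked, 7 held a library far from the other 4. The rule flags about 1 in 20 groups by chance where values are normally distributed, which was not checked for these CPM values. A single Il17a count beside 0 in the other 4 libraries always passes it, so the 7 are not read as an excess. Sox13 read 12.0 CPM in deficient inguinal library 2, against 7.40 to 8.49 CPM in the other deficient inguinal libraries. Trdc read 19.3 CPM in sufficient jejunal library 5, against 11.6 to 13.6 CPM in the others of that group. Il23r read 2.90 CPM in sufficient duodenal library 4, against 0.827 to 1.12 CPM in the others. Blk read 116 CPM in sufficient inguinal library 2, against 145 to 153 CPM in the others. Il17a had a single count, or 0.126 CPM in deficient inguinal library 3, 0.125 CPM in sufficient jejunal library 1 and 0.141 CPM in sufficient ileal library 2, with 0 in the other 4 libraries of each group.

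The difference between gut-draining and inguinal nodes in Scart2 was itself unlike between the diets, with an interaction of 1.30 on the log2 scale (deficient minus sufficient diet). On the deficient diet Scart2 was lower in gut-draining nodes by -0.99 and on the sufficient diet by -2.30. Without the 10 libraries of low Gm19220 the interaction was 1.09 and did not pass.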

How the results depend on the processing

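Across 21 alternatives, no called value of a member changed sign, and the calls of Scart1 and Scart2 for diet in each node and for gut-draining against inguinal nodes held in all 21. The interaction of Scart2 held in 20 and lay between 1.09 and 1.39; without the low Gm19220 libraries the members' count for it went to 0. Members called in ileal nodes for diet numbered 4, and 2 in females alone and without the low Gm19220 libraries. The 1 call in small intestinal against colonic nodes on the sufficient diet went to 0 with no filter, with limma-voom, in females alone, and without the low Gm19220 or the high pancreatic libraries. The 1 call in duodenal against ileal nodes on that diet went to 0 with no filter, limma-voom, DESeq2, females alone and without the low Gm19220 libraries. Leaving out each library number gave 0 to 1 calls for both. The cause was not tested. The ileal Il23r value for diet passed without the sex term (1.28) and without the high pancreatic libraries (1.36).

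Library numbers are not said to mark a mouse. Same-numbered libraries had a median correlation of deviations of 0.0996 within the deficient diet, with 25 of 50 pairs over 0.1, against -0.033 for the other pairs (18 of 200). Within the sufficient diet the median was 0.164, with 34 of 50 over 0.1, against -0.0386 (33 of 200). Of 50 libraries, 38 were closest to their own number, a hint from the data that numbers share an origin. On the sufficient diet the numbers also separate the sexes, and sex was not taken off before these correlations. The numbers were not used as a pairing because no label states it and not every same-numbered pair was over 0.1. With a replicate block the duodenal against ileal call went to 0 and ileal Blk to -0.30, not past the threshold, and calls over all genes in colonic nodes for diet went to 620, against 409 without the block, and for the interaction to 273, against 169.

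Counts over all genes moved by over 1.5 times in several settings. In females alone, diet gave 800 duodenal, 264 jejunal, 367 ileal, 122 colonic and 50 inguinal genes, against 1864, 837, 1048, 409 and 154 with both sexes. On the sufficient diet females alone gave 1136 genes for gut-draining against inguinal (3108), 79 for small intestinal against colonic (705) and 136 for duodenal against ileal nodes (1484), and 29 for the interaction (169). In females alone the share of higher calls was 28.7% in colonic (57.5%) and 44.0% in inguinal nodes (64.3%). Without the low Gm19220 libraries there were 636 ileal, 132 colonic and 35 inguinal genes for diet, 447 and 84 for the deficient node contrasts of 1050 and 325, and 19 for the interaction. With no filter there were 1239 duodenal, 534 jejunal and 96 inguinal genes and 111 for the interaction, and DESeq2 gave 245 inguinal genes and 286 for the interaction. Depth limits Il17a and Il23r most.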
